A study of Homo sapiens with 6 samples.

Results

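The 43 genes described here encode enzymes of amino acid breakdown and of the urea cycle. They were given as a list of symbols by pathway, chosen with earlier results of these data known. All 43 symbols matched 1 Ensembl identifier each among the 60483 in the count files. After the filter on low counts, 33 of them were among the 15025 genes tested and 10 were not. The samples were HepG2 cells, an established human hepatocellular carcinoma line, grown at passage 16 to 19 in RPMI-1640 with 10% fetal bovine serum. One group was transfected with a control siRNA and the other with an siRNA against FTO, the demethylase that acts on N6-methyladenosine in RNA, to find genes that depend on FTO in liver cancer cells. There were 3 libraries in either group, numbered 1 to 3, all from this 1 cell line. The labels do not say that they came from separate cultures, so p-values measure the spread between these libraries, which may be technical.

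Liver is the main organ of amino acid breakdown. Transaminases move the amino group of most amino acids onto glutamate, glutamate dehydrogenase releases it as ammonia, and the urea cycle of periportal hepatocytes turns ammonia into urea. The carbon skeletons go their own ways. Phenylalanine and tyrosine end as fumarate and acetoacetate, tryptophan passes through kynurenine, methionine becomes homocysteine by way of S-adenosylmethionine, and the branched-chain amino acids are oxidised mostly in other tissues after a transamination that liver performs poorly. Liver cancer lines are known to keep this program only in part.

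Total counts lay between 15713279 and 18390953 per library, so that 3 counts corresponded to 0.153 to 0.190 CPM, the count relative to library depth after TMM scaling. FTO (ENSG00000140718.17) stood at 40.8, 38.0 and 38.8 CPM in controls 1, 2 and 3 and at 11.2, 14.5 and 5.21 CPM in the libraries labelled FTO siRNA, lower in each than in every control. ALB, which encodes the serum albumin made by hepatocytes, stood between 2392 and 5635 CPM in all 6 libraries. FTO siRNA 3 stood apart from the other 2 FTO siRNA libraries: it was the highest of the 6 libraries for 29.9% of tested genes and the lowest for 28.1%. FTO siRNA 3 also had the lowest FTO level, the highest total (18390953 counts) and the most genes with a count (27140, against 24814 and 24927 in FTO siRNA 1 and 2). For several members that depended on FTO siRNA 3, the fold change is given with and without it. The fit without FTO siRNA 3 leaves out the lowest FTO level.

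After FTO siRNA, GLUD1 and HGD fell and HPD and KYNU rose. These 4 of the 33 tested members passed an adjusted p of 0.05 (edgeR quasi-likelihood test), or 12.1% of them, where 11.4% of all genes tested passed. Of these 4, HPD met the filter on low counts only through the FTO siRNA libraries, so it could only be called higher. The 2 that rose are 6.06% of the tested members, against 7.53% of all genes, and the 2 that fell are 6.06%, against 3.83%. The share called among these enzymes was thus near that of the transcriptome, and no general shift of the list was measured: 16 log2 fold changes were above 0 and 17 below, with a median of -0.02, beside 0.04 over all genes. For 11 members, 4 higher and 7 lower with FTO siRNA, the control and FTO siRNA values stood fully apart. That is 33.3% of the tested members, and 36.5% of all tested genes showed such a separation (19.2% higher, 17.4% lower). Added over all 43 members, the level was 2549 to 2738 CPM in the controls and 1862 to 2088 CPM with FTO siRNA, below every control. In the group means, GLUD1, GLUL, AHCY, MAT2A and HGD together differed by -622 CPM of the -638 CPM in all, and the other 38 members by -15.9 CPM. In bulk RNA, fewer cells of a kind and less RNA per cell cannot be told apart.

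**Figure D1:**
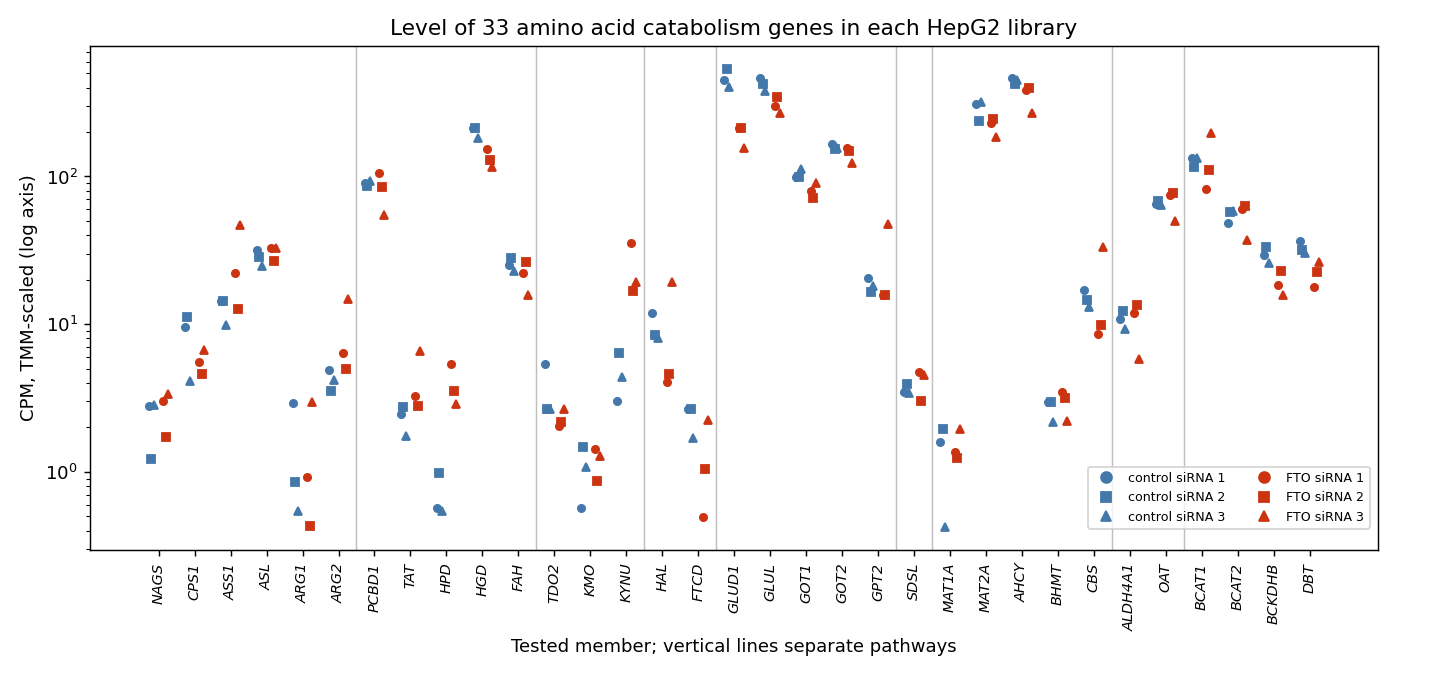
CPM on a log axis for the 33 tested members, with controls in blue and FTO siRNA libraries in red and 1 symbol shape per replicate number. GLUD1, GLUL and AHCY are among the most abundant, most urea cycle genes lie low, and KYNU and HPD show red points well above blue ones.

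**Figure D2:**
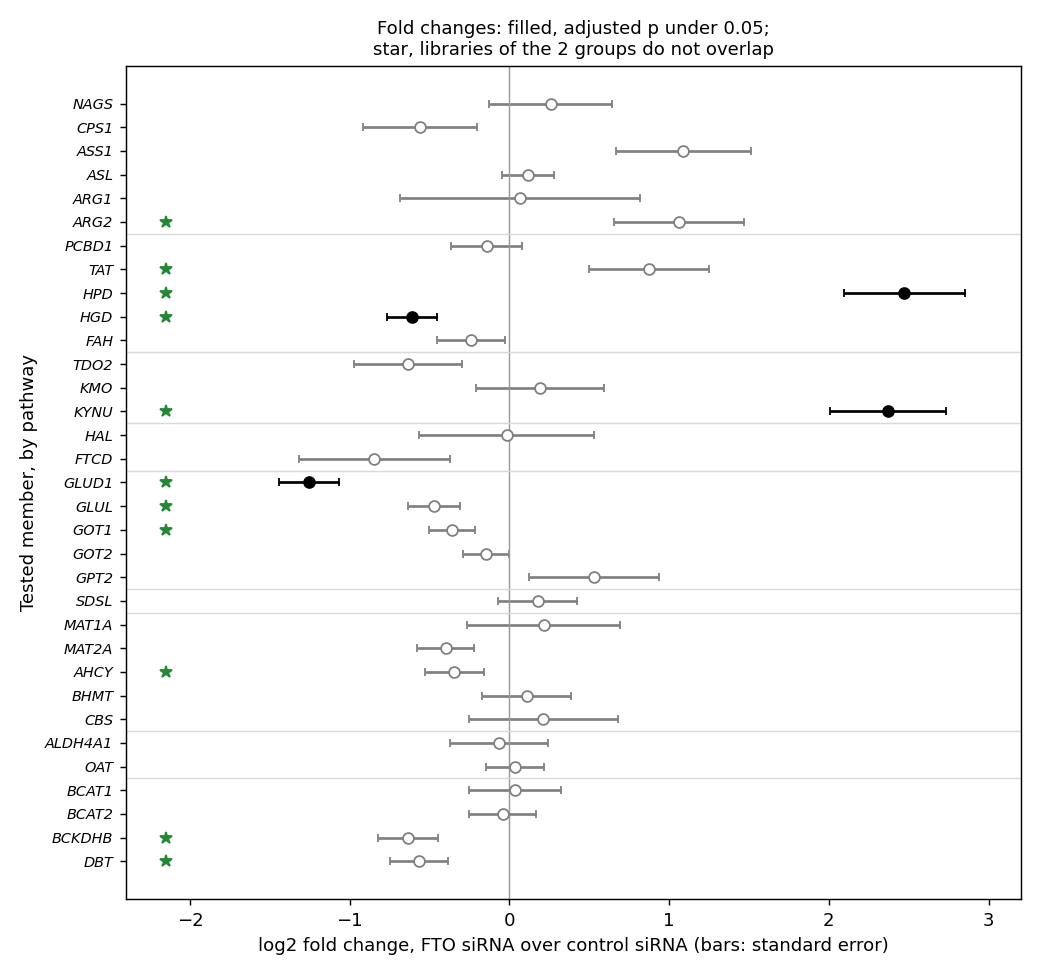
Log2 fold change of FTO siRNA over control siRNA with its standard error (edgeR) for the 33 tested members. Filled points mark the 4 members past an adjusted p of 0.05 and stars mark the 11 whose libraries do not overlap between groups.

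The sequences before the annotated starts of 3 of the 4 called members are shown because these genes moved in opposite directions from very different levels. They are the 250 bases upstream of each start, 5′ to 3′ on the gene's strand, from RefSeq on GRCh38.p14, with HPD given at each of its 2 annotated starts. Capitals mark the TATA box letters TATAAA and the CCAAT box letters CCAAT, on either strand and allowing overlap.
GLUD1 (chr10:87094844-87095093, minus strand): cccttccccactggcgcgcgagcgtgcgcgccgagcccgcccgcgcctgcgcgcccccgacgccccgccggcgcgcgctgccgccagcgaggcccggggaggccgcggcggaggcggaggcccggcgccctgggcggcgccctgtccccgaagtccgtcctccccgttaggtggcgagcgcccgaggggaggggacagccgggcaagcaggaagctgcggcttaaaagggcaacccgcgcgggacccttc
HPD (chr12:121858860-121859109, minus strand): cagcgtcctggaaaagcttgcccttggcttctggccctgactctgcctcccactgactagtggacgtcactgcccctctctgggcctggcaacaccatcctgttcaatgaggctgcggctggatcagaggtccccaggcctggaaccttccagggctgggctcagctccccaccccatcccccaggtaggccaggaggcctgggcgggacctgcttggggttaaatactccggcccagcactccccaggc
HPD (chr12:121888612-121888861, minus strand): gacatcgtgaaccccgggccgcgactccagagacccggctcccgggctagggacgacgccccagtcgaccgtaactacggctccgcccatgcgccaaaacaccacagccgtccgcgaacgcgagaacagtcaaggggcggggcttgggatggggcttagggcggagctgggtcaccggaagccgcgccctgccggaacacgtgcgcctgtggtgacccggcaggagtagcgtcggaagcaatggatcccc
KYNU (chr2:142877414-142877663, plus strand): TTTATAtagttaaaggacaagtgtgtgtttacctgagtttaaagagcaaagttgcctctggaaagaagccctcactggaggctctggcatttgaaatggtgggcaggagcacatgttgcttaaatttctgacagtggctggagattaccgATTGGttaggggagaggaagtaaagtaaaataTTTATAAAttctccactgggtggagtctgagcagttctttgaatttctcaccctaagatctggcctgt
The GLUD1 window is 80.4% G and C with 41 CpG dinucleotides and holds neither motif. The KYNU window is 42.4% G and C with 1 CpG, and holds TATAAA 3 times and CCAAT 1 time. The 2 HPD windows are 64.8% and 68.8% G and C, with 5 and 29 CpG, and hold neither motif. Of the 43 members 36 had a window, and HGD, TAT, GPT, GPT2, PRODH, BCAT2 and SDSL did not. These members had 51 windows, some with several starts. TATAAA occurred in 10 of the 51 (19.6%), against 10.7% of all 35116 windows of that length, and CCAAT in 22 (43.1%) against 32.0%. Such a match is a description of letters and not of binding.

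Among the genes of glutamate and its amide, glutamate dehydrogenase fell. GLUD1 (ENSG00000148672.8, chromosome 10), the mitochondrial enzyme that releases ammonia from glutamate, stood at 449, 535 and 406 CPM in controls 1, 2 and 3 and at 213, 213 and 156 CPM in FTO siRNA 1, 2 and 3. Every FTO siRNA library was below every control. The mean went from 464 ± 65.7 to 194 ± 33.2 CPM (SD, n = 3 per group), 41.9% of the control level. The log2 fold change of GLUD1 was -1.26 ± 0.19 (standard error; adjusted p = 0.00649), and the call held in every fit with 1 library left out (adjusted p from 0.000708 to 0.0443). Of the 50-base words of its longest transcript 27.5% occur in other genes, most of them in GLUD2, an intronless copy. GLUD2 itself was counted at 15.5, 17.2 and 11.7 CPM and at 8.80, 12.0 and 16.5 CPM (adjusted p = 0.576), so the reads assigned to that copy were few beside those of GLUD1. The gene SHLD2, whose exons cover 13.2% of the GLUD1 exonic bases on the opposite strand, had a log2 fold change of -0.26 (adjusted p = 0.274).

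GLUL, the glutamine synthetase of perivenous hepatocytes, stood at 462, 424 and 382 CPM in the controls and at 301, 345 and 267 CPM with FTO siRNA. The groups did not overlap, but the log2 fold change of -0.47 ± 0.16 did not pass (adjusted p = 0.0974). GOT1, the cytosolic aspartate transaminase, likewise separated without passing, at 98.5, 99.1 and 112 CPM against 79.8, 71.5 and 90.5 CPM (log2 fold change -0.36 ± 0.15, adjusted p = 0.150). Its mitochondrial counterpart GOT2 overlapped between groups, at 165, 153 and 156 CPM against 156, 149 and 123 CPM. GPT2, the mitochondrial alanine transaminase, was near 16 to 21 CPM in 5 libraries and at 47.5 CPM in FTO siRNA 3. Its log2 fold change was 0.53 ± 0.41 with all libraries and -0.24 ± 0.15 without FTO siRNA 3, and neither passed. GPT, the cytosolic form, had 5 to 11 counts per library and was not tested. The glutaminase GLS2 had 0 to 3 counts, and the exons of SPRYD4 cover 77.1% of its exonic bases on the opposite strand, so its count is uncertain. Leaving out FTO siRNA 3, GLUL (adjusted p = 0.0347) and GOT1 (adjusted p = 0.0140) passed with GLUD1.

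**Figure D3:**
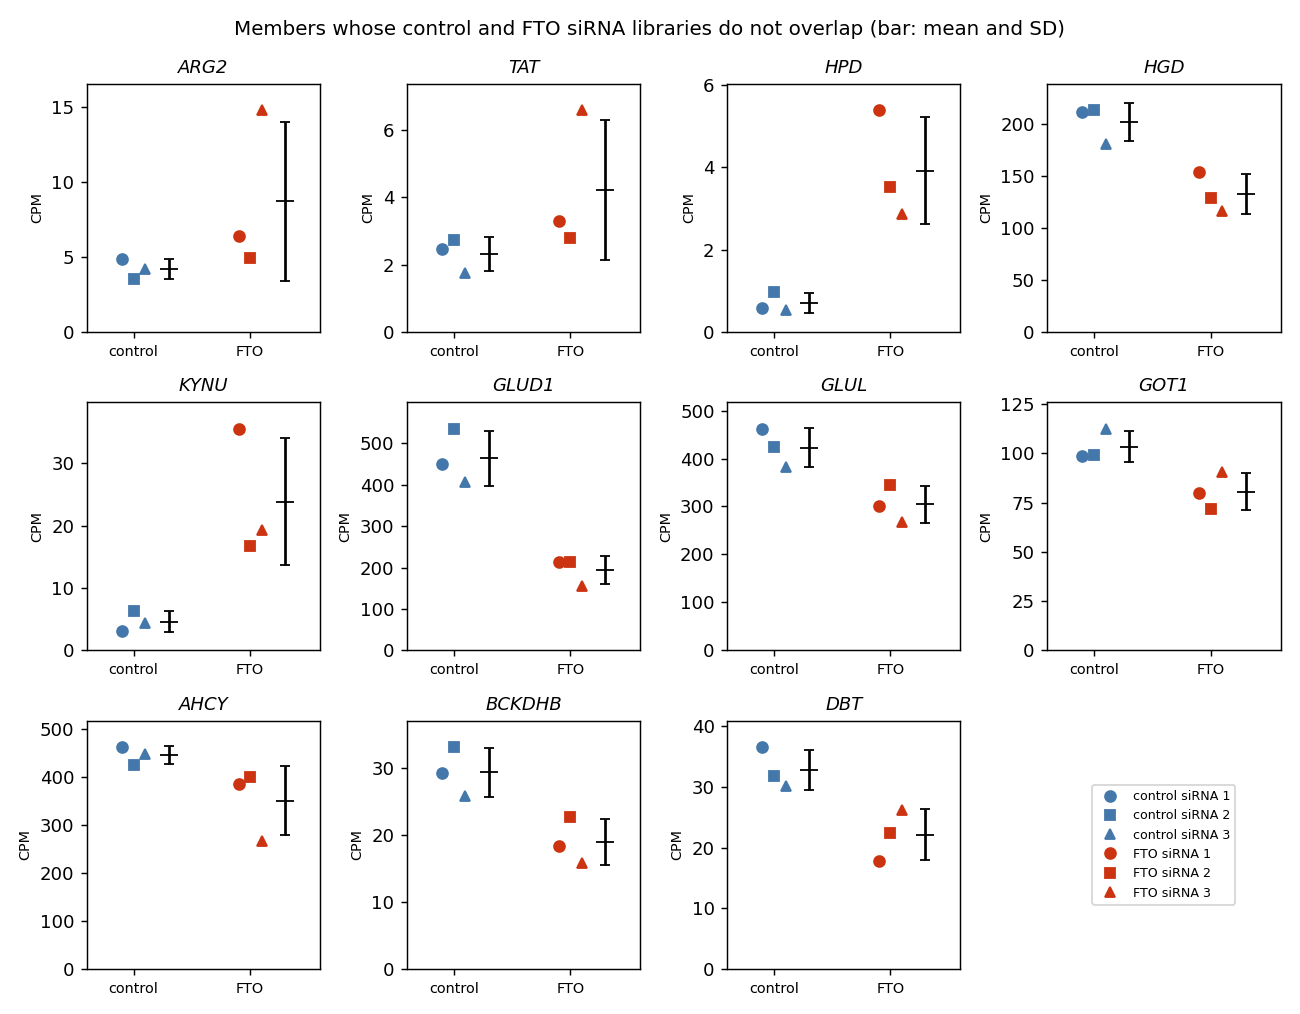
CPM of the 11 members whose control and FTO siRNA libraries do not overlap, each axis starting at 0, with points for libraries and a bar for the mean and SD. ARG2, TAT, HPD and KYNU lie higher and HGD, GLUD1, GLUL, GOT1, AHCY, BCKDHB and DBT lower with FTO siRNA, with FTO siRNA 3 farthest from the controls for ARG2 and TAT.

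Along the route from tyrosine to fumarate, different steps moved in different directions. HPD (ENSG00000158104.10, chromosome 12), the dioxygenase that turns 4-hydroxyphenylpyruvate into homogentisate, was low in the controls, at 0.570, 0.975 and 0.543 CPM, and stood at 5.39, 3.52 and 2.86 CPM with FTO siRNA. Those levels rest on 34 counts in the control group and 200 in the FTO siRNA group, with no overlap. HPD met the filter on low counts only through the FTO siRNA libraries, so it could only be called higher. HPD had a log2 fold change of 2.47 ± 0.38 (adjusted p = 0.00730), and the call was lost without control 1 (adjusted p = 0.0508). HGD (ENSG00000113924.10, chromosome 3), which opens the ring of homogentisate in the following step, was far more abundant and stood at 212, 214 and 181 CPM against 154, 129 and 116 CPM. Its mean went from 202 ± 18.3 to 133 ± 19.1 CPM (SD, n = 3 per group), 65.6% of the control level. The log2 fold change of HGD was -0.61 ± 0.16 (adjusted p = 0.0419). This call was lost without control 1, control 2, control 3 or FTO siRNA 2 (adjusted p up to 0.179) and held without FTO siRNA 1 or 3.

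TAT, the tyrosine transaminase that starts tyrosine breakdown, was at 2.47, 2.74 and 1.75 CPM in the controls and at 3.28, 2.78 and 6.59 CPM with FTO siRNA. The lowest FTO siRNA value lay barely above the highest control, and the gene did not pass (adjusted p = 0.171). The log2 fold change of TAT was 0.88 ± 0.38 with all libraries and 0.36 ± 0.27 without FTO siRNA 3. FAH, the hydrolase of the last step, lay between 22.9 and 28.1 CPM in the controls and between 15.6 and 26.4 CPM with FTO siRNA (adjusted p = 0.503). PCBD1, which recycles the pterin cofactor of the aromatic hydroxylases, had 86.5 to 93.0 CPM in the controls and 105, 85.2 and 54.9 CPM with FTO siRNA (adjusted p = 0.720). Outside the 43 members, QDPR, which reduces the same cofactor, had a log2 fold change of -0.09 (adjusted p = 0.713). GSTZ1, the isomerase between HGD and FAH, stood at 7.03, 8.41 and 7.49 CPM against 10.5, 10.0 and 18.4 CPM and did not pass (adjusted p = 0.103).

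**Figure D4:**
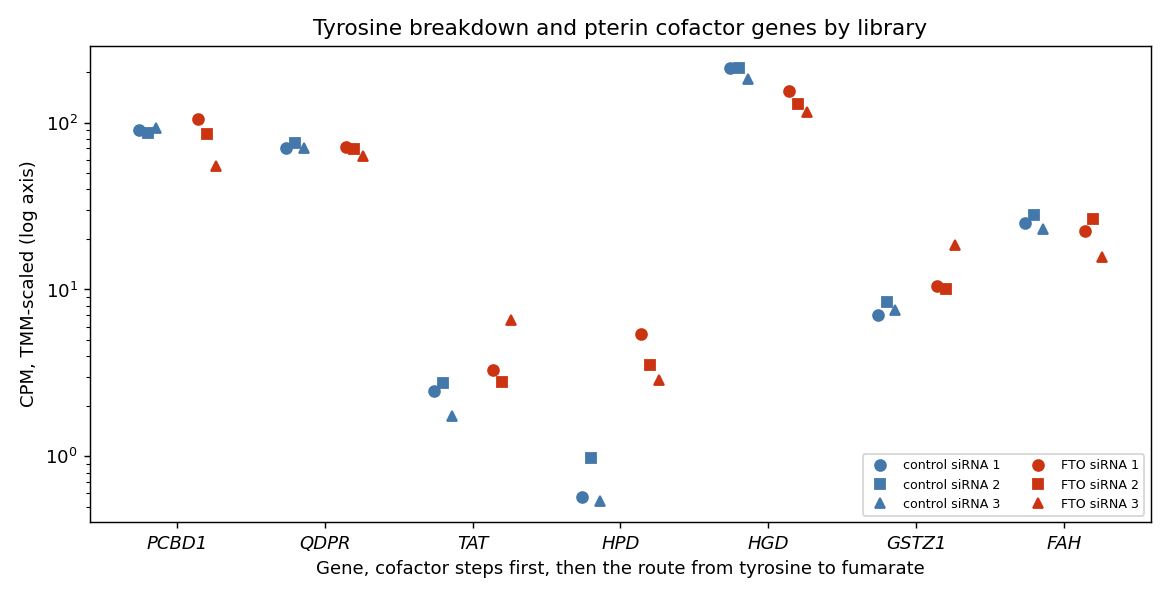
CPM on a log axis in each library for 7 genes of tyrosine breakdown and its pterin cofactor, the cofactor genes PCBD1 and QDPR first and then TAT to FAH in the order of the reactions. HGD lies lower and TAT, HPD and GSTZ1 higher with FTO siRNA without overlap, while PCBD1, QDPR and FAH overlap between groups.

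In tryptophan breakdown the kynureninase rose, and the other members, TDO2 and KMO, did not pass. KYNU (ENSG00000115919.13, chromosome 2), which cleaves kynurenine and 3-hydroxykynurenine, stood at 3.04, 6.34 and 4.41 CPM in the controls and at 35.6, 16.7 and 19.4 CPM with FTO siRNA. The lowest FTO siRNA library was more than 2 times the highest control. KYNU went from 4.59 ± 1.66 to 23.9 ± 10.2 CPM (SD, n = 3 per group) with a log2 fold change of 2.37 ± 0.36 (adjusted p = 0.00712). The call held with each library left out in turn (adjusted p from 0.00125 to 0.0405). TDO2, the dioxygenase that opens the pathway in liver, was at 5.39, 2.68 and 2.66 CPM against 2.05, 2.16 and 2.66 CPM (adjusted p = 0.262). KMO, which hydroxylates kynurenine, stayed near 1 CPM, at 0.570 to 1.46 CPM against 0.865 to 1.43 CPM (adjusted p = 0.799). KYNU and KMO are also known from cells of the myeloid lineage, and some markers of immune cells were higher with FTO siRNA. Of 13 immune markers 8 were tested and 5 were called higher (PTPRC, CD3D, CD2, NKG7 and TYROBP), where 7.53% of all tested genes were. These 5 had 0 to 6 counts in each control and met the filter on low counts only through the FTO siRNA libraries. They could therefore only be called higher, and their calls are no test of a rise. The myeloid markers CD14, FCER1G and LYZ did not pass (edgeR adjusted p = 0.123, 0.0946 and 0.967), and CD68 was not tested. The summed level of the immune markers without LYZ was 1.84 to 2.96 CPM in the controls and 11.8 to 14.8 CPM with FTO siRNA. HepG2 controls also carry LYZ, at 46.7 to 97.3 CPM. With LYZ the sums overlapped, at 49.7 to 99.4 CPM and 72.1 to 98.3 CPM. TYROBP, a myeloid and natural killer cell adaptor, had no count in any control and 1.98, 1.79 and 1.28 CPM with FTO siRNA. Of 8 fibroblast markers 6 were tested and 3 were called higher, COL1A1, COL1A2 and TAGLN, where 7.53% of all tested genes were. The summed levels of the 8 were 99.8 to 189.9 CPM in the controls and 248 to 600.0 CPM with FTO siRNA. TAGLN made up 464, 284 and 90.03 CPM of the sums in FTO siRNA 1, 2 and 3, and its value in FTO siRNA 3 lay within the 34.3 to 91.3 CPM of the controls. COL3A1, LUM and PDGFRB did not pass. DCN and THY1 were not tested and had no count in the controls. In FTO siRNA 1, 2 and 3 they had only 6, 0 and 2 counts (DCN) and 3, 0 and 3 counts (THY1). The part of such transcripts in the rise of KYNU was not tested.

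Members of the branched-chain route separated between groups in 2 of the 4 tested cases, both lower (17.4% of all tested genes were lower without overlap), and none passed with edgeR or limma-voom, although these 2 had an unadjusted p under 0.05. BCKDHB, the beta subunit of the dehydrogenase that commits these amino acids to oxidation, stood at 29.2, 33.1 and 25.8 CPM in the controls and at 18.3, 22.7 and 15.8 CPM with FTO siRNA (log2 fold change -0.63 ± 0.19, adjusted p = 0.0646). DBT, the transacylase core of the same complex, stood at 36.6, 31.7 and 30.2 CPM against 17.8, 22.4 and 26.3 CPM (log2 fold change -0.57 ± 0.18, adjusted p = 0.0831). Both subunits were thus lower in every FTO siRNA library than in every control. Both passed without FTO siRNA 3 (adjusted p = 0.0313 and 0.00837) and with DESeq2, which called 4 members lower (4.80% of its genes) and 2 higher (7.30%). BCKDHA, the alpha subunit, had only 0 to 5 counts per library. Another annotated gene on the same strand covers 63.8% of its exonic bases and was itself listed at 0, and how reads shared by such genes were counted is not given in the sources used here. Its count is therefore uncertain. The transaminases BCAT1 (cytosolic) and BCAT2 (mitochondrial) overlapped between groups, at 116 to 134 against 82.9 to 198 CPM and at 48.5 to 58.1 against 37.2 to 62.7 CPM. The log2 fold change of BCAT1 was 0.03 ± 0.29 with all libraries. Without FTO siRNA 3 it was -0.42 ± 0.15 and did not pass (edgeR adjusted p = 0.0540).

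None of the 7 urea cycle members passed the test, and most were scarce. Of the 6 tested with edgeR, ASS1 and ARG2 had an unadjusted p under 0.05, and DESeq2 and limma-voom called 0. Per kilobase of the longest annotated transcript, ASL stood at 13.2 CPM in the controls and ASS1 at 6.52, while ARG2, CPS1, NAGS and ARG1 stood at 2.05, 1.42, 1.05 and 0.938. CPS1, which makes carbamoyl phosphate, was at 9.50, 11.1 and 4.11 CPM in the controls and at 5.52, 4.57 and 6.64 CPM with FTO siRNA. OTC, which joins it to ornithine, had 2, 0 and 0 counts against 7, 2 and 7 and was not tested. NAGS, which makes the activator of CPS1, was at 1.22 to 2.84 against 1.73 to 3.37 CPM. ASS1, the synthetase that brings in aspartate, stood at 14.4, 14.3 and 9.90 CPM against 22.2, 12.7 and 47.0 CPM. Its log2 fold change of 1.09 ± 0.42 did not pass (adjusted p = 0.135) and came to 0.41 ± 0.24 without FTO siRNA 3. ASL, the lyase that follows, lay between 24.8 and 31.6 CPM and between 26.6 and 32.8 CPM. ARG1, the liver arginase, ranged from 0.543 to 2.91 CPM and from 0.432 to 2.96 CPM. ARG2, the mitochondrial arginase of other tissues, stood at 4.88, 3.53 and 4.17 CPM against 6.38, 4.94 and 14.8 CPM, without overlap (log2 fold change 1.06 ± 0.41, adjusted p = 0.130). Without FTO siRNA 3 its log2 fold change was 0.41 ± 0.22. The exons of VTI1B cover 37.4% of its exonic bases on the opposite strand, and VTI1B had a log2 fold change of -0.11 (adjusted p = 0.671).

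Among the methionine adenosyltransferases the form not limited to liver was far more abundant, and none of the 6 methionine members listed here passed. Of the 5 tested, 0 had an unadjusted edgeR p under 0.05, and DESeq2 and limma-voom called 0. MAT2A, the methionine adenosyltransferase of dividing and extrahepatic cells, stood at 310, 237 and 321 CPM in the controls, and MAT1A, the liver form, at 1.58, 1.95 and 0.423 CPM. Per kilobase these are 103 and 0.387 CPM. With FTO siRNA MAT2A was at 230.1, 245 and 184 CPM (adjusted p = 0.189) and MAT1A at 1.36, 1.24 and 1.94 CPM (adjusted p = 0.811). AHCY, which splits S-adenosylhomocysteine, was the most abundant member per kilobase in the controls (188 CPM per kilobase). It stood at 461, 424 and 448 CPM against 385, 398 and 267 CPM, without overlap and without passing (log2 fold change -0.34 ± 0.19, adjusted p = 0.264). CBS, which sends homocysteine to cysteine, was at 17.0, 14.6 and 13.2 CPM against 8.61, 9.82 and 33.1 CPM. Of its 50-base words 92.3% also occur in CBSL, a near-identical copy, so its level is uncertain. BHMT, which remethylates homocysteine with betaine, was at 2.17 to 2.99 CPM against 2.20 to 3.47 CPM, and GNMT, which uses up S-adenosylmethionine, had 0 to 5 counts per library. Outside the 43 members, the related BHMT2 was far more abundant, at 146, 143 and 144 CPM in the controls. With FTO siRNA BHMT2 stood at 152, 137 and 66.9 CPM (edgeR adjusted p = 0.535).

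Genes of histidine, serine, glyoxylate and proline breakdown were low or overlapped. Of the 5 tested, 0 passed or had an unadjusted edgeR p under 0.05, and DESeq2 and limma-voom called 0. HAL, the histidine ammonia-lyase, stood at 12.0, 8.41 and 8.03 CPM in the controls and at 4.03, 4.57 and 19.2 CPM with FTO siRNA. FTCD, which hands the formimino group to folate, was at 2.66, 2.68 and 1.69 CPM against 0.496, 1.05 and 2.25 CPM (adjusted p = 0.282). UROC1, the urocanate hydratase between them, had 0 counts in the controls, where the floor of 3 counts allows up to 0.181 to 0.190 CPM, and 1, 0 and 3 counts with FTO siRNA. The serine dehydratase SDS had 2 to 5 counts per library, and SDSL, its paralog, lay at 3.44 to 3.96 against 3.03 to 4.71 CPM. AGXT, the peroxisomal enzyme that detoxifies glyoxylate, had 4, 11 and 3 counts against 4, 3 and 32. The proline dehydrogenase PRODH and the hydroxyproline dehydrogenase PRODH2 had 0 to 4 and 2 to 8 counts. ALDH4A1, which acts on the products of both routes, stood at 9.30 to 12.4 CPM against 5.77 to 13.5 CPM. Another gene on the same strand covers 41.1% of the ALDH4A1 exonic bases. OAT, the ornithine aminotransferase, was at 64.5 to 67.9 CPM against 49.9 to 77.0 CPM (adjusted p = 0.926).

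The FTO siRNA libraries did not treat these genes alike. FTO siRNA 3 was more than 1.5 times every other library for ASS1, ARG2, TAT, HAL, GPT2 and CBS, 6 of the 33 tested members (18.2%), where 8.26% of all tested genes showed this. For HAL, CBS, GPT2 and BCAT1, FTO siRNA 1 and 2 lay below every control and FTO siRNA 3 above. Without FTO siRNA 3, HAL had a log2 fold change of -1.16 ± 0.24 (adjusted p = 0.00684), FTCD of -1.61 ± 0.40 (adjusted p = 0.0162) and CBS of -0.72 ± 0.17 (adjusted p = 0.0143). With all 6 libraries the same genes were at -0.02, -0.84 and 0.21. In that smaller fit 9 members fell, HGD, HAL, FTCD, GLUD1, GLUL, GOT1, CBS, BCKDHB and DBT. They are 27.3% of the 33 tested, beside 14.1% of all genes, and the 2 that rose, HPD and KYNU, are 6.06% beside 15.9%. In all, 30.0% of genes passed in that fit. Of 10 hepatocyte markers 0 passed with all libraries (edgeR, with APOB under an unadjusted p of 0.05 and called by DESeq2 and limma-voom). All 10 log2 fold changes were below 0, those of TTR, TF and SERPINA1 only at -0.015, -0.005 and -0.054, and 8 markers overlapped between groups. Without FTO siRNA 3, 6 of 10 were lower (60%, beside 14.1% of all genes), and TTR was at 0.10. The summed level of the 10 markers overlapped between groups, at 23230 to 33424 CPM in the controls and 19216, 15888 and 28292 CPM in FTO siRNA 1, 2 and 3. What part the state of the cultures had in this split was not tested. The letters TGATGNAA of the C/EBP-ATF element, known from genes of the amino acid response, occurred on either strand in 2 of the 51 windows (3.92%), those of BCAT1 and GOT1, against 3.14% of all windows. TAT and GPT2 had no window, and only the 250 bases upstream of each start were searched. A count near the share of all windows says nothing about the response of these members, which was not tested.

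**Figure D5:**
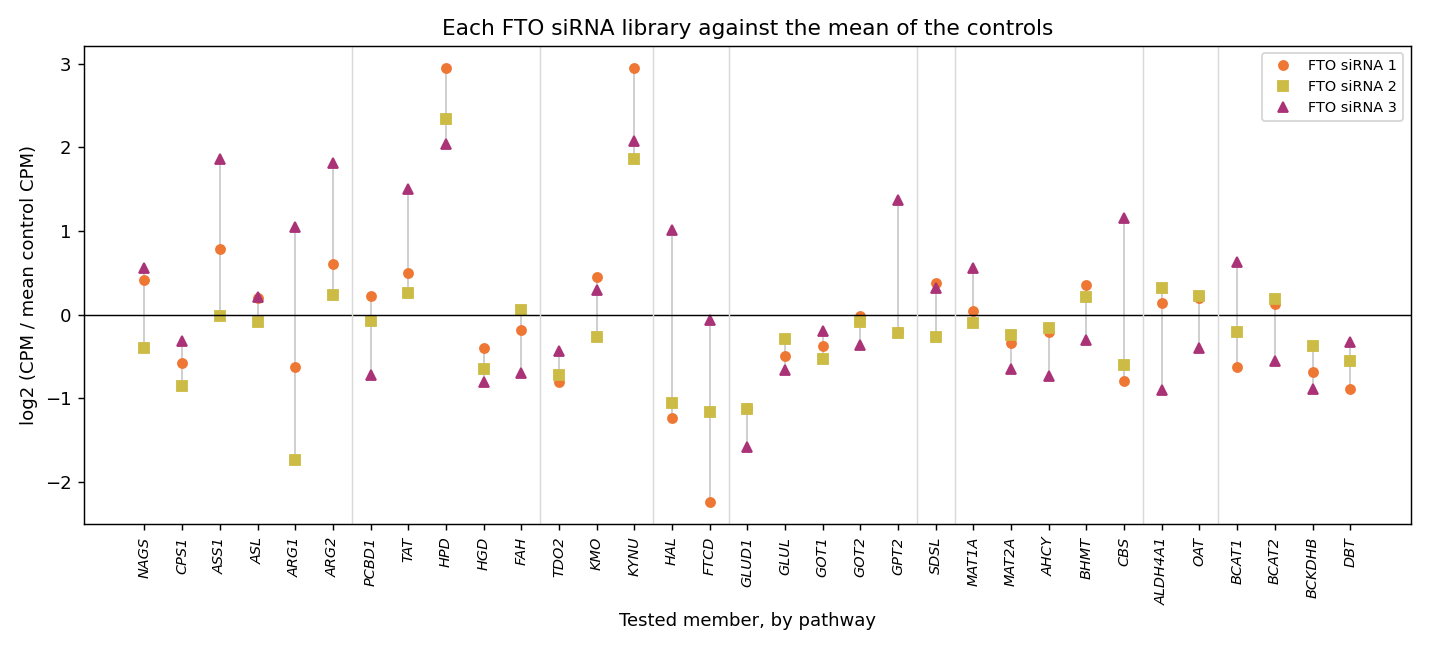
Log2 of the CPM of each FTO siRNA library over the mean control CPM for the 33 tested members. FTO siRNA 3 lies far above the other FTO siRNA libraries for ASS1, ARG2, ARG1, HAL, GPT2 and CBS and below them for PCBD1 and ALDH4A1, while all 3 agree in direction for HPD, KYNU, HGD and GLUD1.

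Further genes of these pathways were counted from lists of 65 non-members, of which 59 were tested. Of these 9 fell (15.3%, beside 3.83% of all genes) and 2 rose (3.39%, beside 7.53%), and their median log2 fold change was -0.30, beside 0.04 over all genes. Those that fell include SARDH and DMGDH, which oxidise sarcosine and dimethylglycine in mitochondria. SARDH was at 32.8 ± 8.44 CPM in the controls and 9.45 ± 3.90 CPM with FTO siRNA, and DMGDH at 17.2 ± 1.81 and 8.38 ± 1.85 CPM (SD, n = 3 per group). MTR, the methionine synthase, went from 72.9 to 38.5 CPM, and GLDC, of the glycine cleavage system, from 120.2 to 79.9 CPM. Downstream of the branched-chain dehydrogenase, ACADSB went from 91.8 to 38.9 CPM and ALDH6A1 from 19.3 to 8.28 CPM. The others were KYAT3 of the kynurenine branch (19.4 to 12.1 CPM), the lysine enzyme ALDH7A1 (95.1 to 55.1 CPM) and SLC25A15, the ornithine carrier of the urea cycle (18.1 to 10.5 CPM). The 2 that rose were GAD1, a glutamate decarboxylase known mainly from neurons (0.529 to 3.72 CPM), and CDO1, the cysteine dioxygenase (1.75 to 3.38 CPM). GAD1 met the filter on low counts only through the FTO siRNA libraries. Without control 1 or without control 2, 1 of these 11 calls held, that of GAD1, and 7 held without control 3, 6 without FTO siRNA 1 and 5 without FTO siRNA 2. Without FTO siRNA 3 all 11 held, and 18 of the 59 were lower (30.5%, beside 14.1% of all genes in that fit) and 4 higher (6.78%, beside 15.9%). The lists were chosen with earlier results of these data known, and such a choice can itself raise these shares. With the 9 amino acid synthesis genes added, 13.2% of 68 tested genes fell and 2.94% rose. These counts describe the lists and do not set them apart from other lists.

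Ratios between paired enzymes, taken within a library so that scaling does not enter, did not separate the groups. Over 8 pairs every ratio overlapped between control and FTO siRNA libraries, with exact two-sided permutation p from 0.2 to 1 (Benjamini-Hochberg adjusted 0.914 to 1), where 0.1 is the smallest p that 3 against 3 allows. The log2 ratio of BCAT1 to BCAT2 counts was 1.22 ± 0.23 in the controls and 0.47, 0.82 and 2.41 in FTO siRNA 1, 2 and 3. That of GOT2 to GOT1 was 0.61 ± 0.14 in the controls and 0.97, 1.06 and 0.44 with FTO siRNA. In both of these pairs FTO siRNA 3 lay on the other side of the control mean from FTO siRNA 1 and 2. The log2 ratio of MAT2A to MAT1A was 7.99 ± 1.33 in the controls and 7.17 ± 0.55 with FTO siRNA, and that of ARG2 to ARG1 was 1.87 ± 1.07 and 2.82 ± 0.56 (SD, n = 3 per group). The other 4 pairs, GLS2 to GLUL, GPT2 to GPT, SDSL to SDS and PRODH2 to PRODH, hold a member too low to test. With 1 library left out, their differences in mean log2 ratio ranged from 1.03 to 2.48, from 0.0080 to 0.53, from -0.03 to 0.23 and from -1.02 to 0.79, so that the sign of the last 2 depended on the libraries used. The difference for BCAT1 to BCAT2, 0.01 with all libraries, likewise ranged from -0.57 to 0.40.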

How the data were processed

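RNA was taken up in Trizol and made into Illumina libraries, per the labels' protocols. The authors deposited, for each library, raw counts keyed by versioned Ensembl identifiers. Per the submitters' processing notes, TopHat2 2.0.11, TopHat and HTSeq were used with hg19 or GRCh37, in an order and role that the notes leave out. Whether strand was used and how shared reads were treated is not given in the sources used here. Symbols came from a GENCODE table (56321 of 60483 identifiers matched). Transcript length, 50-base words shared with other genes and exonic overlap came from GENCODE 29, and were chosen as checks after the data were seen, as was the immune list without LYZ.

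The counts passed filterByExpr (by group), received TMM factors and entered edgeR 4.0.16 in R 4.3.3 (glmQLFit with legacy=FALSE, glmQLFTest, two-sided) on an intercept and the group. P-values were Benjamini-Hochberg adjusted over all 15025 genes, with a threshold of 0.05. The standard error is the absolute log2 fold change over the root of F. Ratios used a pseudocount of 0.5 counts. Floors of 3 counts cover counting error only. The fit was tested on simulated data, where it called 2.99%, 44.8% and 97.0% of genes changed 1.5, 2 and 4-fold, with 5 false calls among 101. A gene that did not pass may therefore still have changed by such smaller folds. The simulation changed only a small share of genes, all above a minimum mean count, and no simulated library departed as FTO siRNA 3 did. Its shares may differ for members of low count and for these data. Alternatives were RLE, upper quartile and no factors, 2 other filters, DESeq2 1.42.0, limma-voom 3.58.1, a replicate block and each library left out. Every member is named. Full values are given for members that passed or whose groups do not overlap, and values for listed genes that passed. Members and lists were chosen with earlier results of these data known. Some genes of these pathways are not reported here.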

Additional observations from a re-analysis of the deposited data

How the results depend on the processing

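GLUD1 and KYNU passed in all 14 alternatives. HPD, which in the main fit could only be called higher, passed in all but the fit without control 1. HGD was lost with the replicate block and in 4 of the 6 fits with 1 library left out. No log2 fold change of the 11 members that passed or separated changed sign. Other factors or filters kept both counts of members called at 2, and 11 or 12 members separated. The members' median log2 fold change lay between -0.15 and 0.06. With 1 library left out, members called higher numbered 1 to 2 and lower 1 to 9. Over all genes, calls came to between 236 and 2430 higher and between 94 and 2152 lower. DESeq2 called 924 genes and 4 members lower. Fitted with the replicate number as a block, 736 genes were higher and 305 lower, with 1 member lower, and 6 of the 11 calls among the 59 further pathway genes held. Samples with the same number correlated at -0.14, -0.06 and -0.25 in their deviations, so the numbers give no pairing. With another pseudocount or 1 library left out, no isoenzyme ratio moved beyond the spread between libraries, though PRODH2 to PRODH turned to 0.79 without control 3, GPT2 to GPT was 0.0080 without FTO siRNA 3, and GLS2 to GLUL was 0.97 with a pseudocount of 2. The 10 untested members had at most 32 counts in a library.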

Other observations

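Amino acid synthesis genes showed the same departure of FTO siRNA 3 more sharply. Of 9 measured, 0 passed in either direction with edgeR, DESeq2 or limma-voom, 1 (ASNS) had an unadjusted edgeR p under 0.05, and FTO siRNA 3 was more than 1.5 times every other library for 5. ASNS, the asparagine synthetase, stood at 47.5, 40.3 and 46.3 CPM in the controls and at 47.5, 48.7 and 436 CPM in FTO siRNA 1, 2 and 3. PHGDH and PSAT1, which start serine synthesis, stood at 271 and 385 CPM in FTO siRNA 3, and CTH, a cysteine synthesis enzyme from the methionine list, at 46.1 CPM against 8.43 to 12.1 CPM in the other 5 libraries. Without FTO siRNA 3, PHGDH (log2 fold change -0.52 ± 0.15, adjusted p = 0.0268) and PSAT1 (-0.53 ± 0.13, adjusted p = 0.0158) were lower with FTO siRNA, and ASNS had a log2 fold change of 0.08 (adjusted p = 0.658).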
